A study of Mus musculus with 2 samples.

Results

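The cadherins and protocadherins are calcium-dependent adhesion proteins with repeated extracellular cadherin domains. Genes were taken by symbol, as Cdh followed only by digits or as Pcdh followed by digits or by a, b or g, which gave 93 of the 55416 features in the count tables. Of these, 23 were cadherins, 58 were clustered protocadherins and 12 were non-clustered protocadherins. Their RNA was measured by single-nucleus RNA-seq in frozen whole brain of fetal mice, with 1 library labelled wildtype and 1 labelled Cav1 knockout. Cav1 encodes caveolin 1, the coat protein of the membrane pits called caveolae. The labels give no fetal day, strain, allele or number of fetuses, and do not say whether the knockout covers all cells. With 1 library per genotype there is no replicate check, so no test was made, and every interval below is a 95% interval that covers counting error only.

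Classical cadherins join like cells by binding the same cadherin on the neighbouring cell, and catenins tie their tails to actin. Type I cadherins such as N-cadherin hold the neuroepithelium together, while the type II cadherins are expressed in combinations that differ between nuclei and layers of the brain. The clustered protocadherins are encoded in 3 neighbouring arrays, alpha, beta and gamma, from which single neurons use small sets of promoters, and the resulting surface labels serve in self-recognition of neurites. The non-clustered protocadherins, of the delta-1 and delta-2 families, have their own genes and act in axon growth and cell sorting.

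The wildtype-labelled library kept 6686 nuclei with 17205381 UMIs, and the knockout-labelled library kept 6680 nuclei with 19878903 UMIs. A UMI is a tag that marks 1 captured RNA molecule, and levels are given as CPM, UMIs per 1000000 of all UMIs in the same sum. The libraries shared 43 cell barcodes, 10 of them among the kept nuclei of both. Cav1 itself had 71 UMIs in the wildtype-labelled library against 80 in the knockout-labelled one, which gave a log2 ratio of −0.04 (−0.52 to 0.45), so its total did not separate the libraries. In endothelial cell-like nuclei it had 17 UMIs against 1. The libraries are therefore called by their labels throughout. Clustering without any of the 93 genes gave 24 clusters, of which 21 were placed in 13 classes by marker genes and 3 stayed unnamed. The mix differed between the libraries. The share of cortical excitatory neuron-like nuclei was 24.9% in the wildtype-labelled library but 17.7% in the other, that of the class named only as neuron-like 12.4% and 18.5%, and that of the unnamed clusters 14.4% and 23%. For this reason ratios past 1.3-fold over all nuclei are set beside values at an equal mix of clusters or classes.

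Together the 93 genes gave 108539 UMIs in the wildtype-labelled library against 132092 in the knockout-labelled one. Their summed level was 6308 CPM (6271 to 6346) in the first and 6645 CPM (6609 to 6681) in the second. The log2 ratio was 0.07 over all nuclei and −0.01 at the same mix of clusters. Pcdh9, a delta-1 protocadherin, made up 30.1% of these UMIs on its own. N-cadherin (Cdh2) followed with 10.1%, the GPI-anchored T-cadherin (Cdh13) with 9.0% and Pcdh7 with 8.21%. All 58 clustered protocadherins together held 2.93%. These shares are not corrected for gene length. At least 100 UMIs over both libraries were counted for 54 genes, 17 of them cadherins, 27 clustered and 10 non-clustered protocadherins. Pcdhb1 had no UMI in any kept nucleus, and 3 UMIs per library were taken as the limit for a count of 0.

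Levels of different genes were also divided by length. With 3′ chemistry a UMI marks 1 captured molecule whatever its length, so the order depends on the divisor. Neither order below is a ranking of expression. Per 100 kb of annotated gene, the mean of both libraries was 807 CPM for Pcdh8, 390.3 CPM for Cdh24, 270.3 CPM for Cdh2, 231 CPM for Pcdh10 and 223 CPM for Pcdh9. At the other end stood Cdh12 with 11.4 CPM, Cdh3 with 5.77 CPM and Cdh23 with 2.99 CPM per 100 kb. Per kb of merged exon the order was different: Pcdh9 led with 212 CPM, before Cdh2 with 75.3, Cdh4 with 57.9 and Cdh13 with 50.9, and Pcdh8 had 8.07. Across the 27 genes outside the clustered loci with at least 100 UMIs, the log level and the log gene length had a Pearson r of 0.63 and a Spearman rho of 0.66. This correlation is across genes of the same libraries, and genes are not independent replicates.

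**Figure D1:**
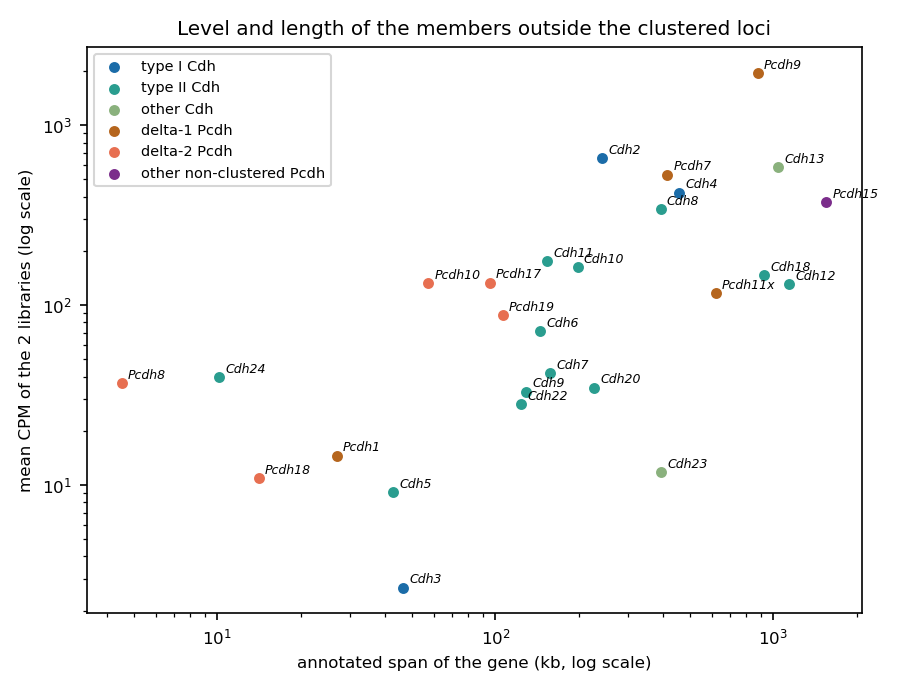
Each point is 1 cadherin or non-clustered protocadherin gene with at least 100 UMIs, by its annotated length in kb and its mean level in CPM over both libraries, both on log axes and coloured by family. Pcdh9 lies highest, and the short genes Pcdh8 and Cdh24 lie above longer genes such as Cdh5 and Cdh3.

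Between the libraries, 17 of the 54 genes exceeded their wildtype-labelled level by 1.3-fold or more in the knockout-labelled library, and 1 lay below it by as much. Over all 15527 genes with at least 100 UMIs, 5.96% were higher and 3.04% lower by this measure. The 31.5% of cadherin and protocadherin genes on the higher side was above that share, and the 1.85% on the lower side was not. These shares were not matched on UMIs, and the part of depth in their difference was not tested. The median log2 ratio was 0.16 over the 54 genes and −0.01 over all genes. Of the 17, 14 had an interval above 0. At the same mix of clusters the count was 11 higher and 2 lower, beside 3.97% and 2.99% of all genes, and 10 of the 17 were among the 11. At the same mix of classes it was 10 higher and 1 lower, beside 3.79% and 2.38%. Without a replicate library, these counts describe the pair of libraries and not the genotypes.

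By family, the 13 type II cadherins summed to a log2 ratio of 0.20 (0.18 to 0.23), the 5 type I cadherins to −0.07 (−0.10 to −0.04) and the 5 other cadherins to −0.18 (−0.22 to −0.14). With clusters mixed alike these became 0.07, −0.01 and −0.14. The delta-1 protocadherins stood at 0.03 (0.01 to 0.04) and the delta-2 protocadherins at 0.24 (0.19 to 0.29), and at the same mix of clusters at −0.07 and 0.09. The arrays gave 0.24 (0.08 to 0.40) for Pcdha, 0.35 (0.22 to 0.48) for Pcdhb and 0.07 (−0.02 to 0.17) for Pcdhg. Their values at the same mix of clusters were 0.19, 0.28 and 0.10.

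**Figure D2:**
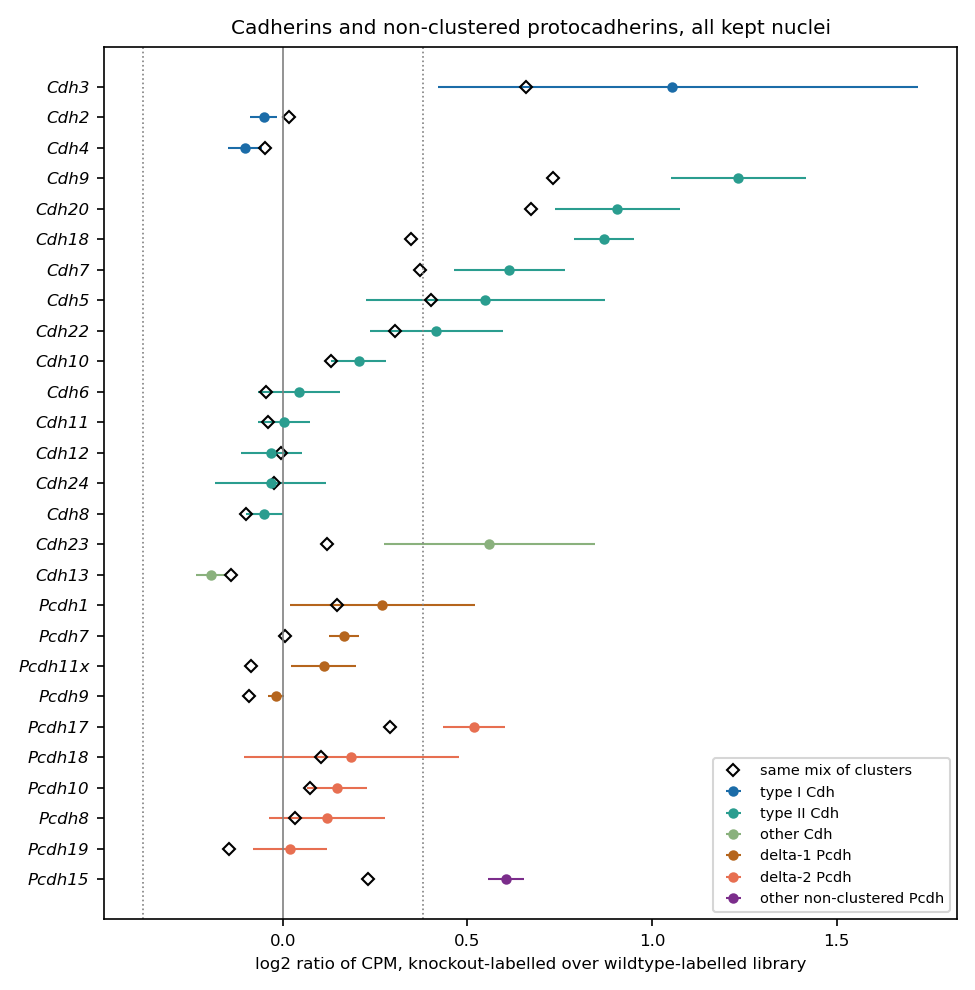
Log2 ratio of CPM, knockout-labelled over wildtype-labelled library, for the 27 cadherins and non-clustered protocadherins with at least 100 UMIs, with 95% counting intervals as bars. Dotted lines mark 1.3-fold and open diamonds the ratio at the same mix of clusters. Cdh9 at 1.23 and Cdh3 at 1.05 lie farthest to the right, and the diamonds of Cdh18 (0.35) and Pcdh15 (0.23) lie inside the dotted lines.

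Among the type II cadherins, 6 of the 12 with at least 100 UMIs were past 1.3-fold, all on the higher side of the knockout-labelled library, beside 5.96% of all genes. Equal mixes lowered this to 4 genes for classes and 3 for clusters, beside 3.79% and 3.97%. Cdh9 (chr15:16728507-16857226, plus strand, GRCm39), a homophilic adhesion protein of hippocampal synapses, had 339 UMIs in the wildtype-labelled library against 921 in the knockout-labelled one, 19.7 CPM (17.7 to 21.9) against 46.3 CPM (43.4 to 49.4). Their log2 ratio was 1.23 (1.05 to 1.42), and 0.73 at the same mix of clusters. Cdh20 (chr1:104696236-104923207, plus strand) had 416 and 900 UMIs, 24.2 CPM against 45.3 CPM, which gave a log2 ratio of 0.91 (0.74 to 1.08), and 0.67 at the same mix of clusters. Cdh18 (chr15:22549108-23474504, plus strand) had 1776 and 3750 UMIs, 103 CPM against 189 CPM, which gave a log2 ratio of 0.87 (0.79 to 0.95). With clusters mixed alike Cdh18 stood at 0.35, within 1.3-fold, but with classes mixed alike at 0.57, past it.

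The size of these 3 ratios was not the same in every cluster, and its difference between clusters was not tested. Cdh9 reached 100 UMIs in 2 clusters. Cluster 12, unnamed, had Cdh9 itself and the transcription factors Ebf2, Skor2 and Lmx1b among its leading genes. There Cdh9 had 51 UMIs in the 195 wildtype-labelled nuclei and 355 in the 331 knockout-labelled nuclei, 38.2 CPM against 137 CPM. In the neuron-like cluster 0, led by Sim1, it had 43.5 CPM against 82.2 CPM. The highest Cdh9 level of the wildtype-labelled library was in the neuron-like cluster 17, led by Ikzf1, Rarb and Isl1, where the libraries stood at 129 CPM and 112 CPM from 49 and 31 UMIs. Cdh18 in cluster 12 had 191 CPM against 395 CPM, which gave a log2 ratio of 1.05 (0.85 to 1.25). In cluster 0 the Cdh18 ratio was 0.24 (0.12 to 0.36), and in the other inhibitory neuron-like cluster 15 it was −0.81 (−1.36 to −0.28), from 102 and 43 UMIs. In cluster 7 it was 0.80 (0.45 to 1.16). Cdh20 had a ratio above 0 in all 4 clusters where it had 100 UMIs, 0.86 in the unnamed cluster 14, 0.69 in cluster 0, 0.49 in radial glia-like cluster 4 and 0.07 in cluster 12.

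Genes annotated on the opposite strand within Cdh9 and Cdh18 also had ratios above 0. Gm49127, inside Cdh9, had 63 and 144 UMIs, which gave a log2 ratio of 0.98 (0.55 to 1.44). Like Cdh9, it is among the 10 leading genes of cluster 12. Gm49191, inside Cdh18, had 29 and 80 UMIs, which gave a log2 ratio of 1.26 (0.63 to 1.92). Whether the authors counted by strand is not given in the sources used here, so the reads of each pair cannot be told apart. Gm49127 and Gm49191 were not among the genes left out of the clustering.

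The promoters of these 3 genes are shown because these type II cadherins had the largest ratios of their family. RefSeq holds a start region for each, and the starts below are those of RefSeq. On chromosome 15 the Cdh9 run lies near the beginning of its GRCm39 span, but the Cdh18 run lies far inside its own, chr15:22549108-23474504. The Cdh18 run thus belongs to an internal start, and any earlier start of the gene is not shown. Each run below is the 250 bases before the annotated start on the plus strand, read from RefSeq on build GRCm38.p6, with CCAAT or its reverse complement ATTGG in capitals. The motif was chosen after the sequences had been seen.
Cdh9, chr15:16728665-16728914: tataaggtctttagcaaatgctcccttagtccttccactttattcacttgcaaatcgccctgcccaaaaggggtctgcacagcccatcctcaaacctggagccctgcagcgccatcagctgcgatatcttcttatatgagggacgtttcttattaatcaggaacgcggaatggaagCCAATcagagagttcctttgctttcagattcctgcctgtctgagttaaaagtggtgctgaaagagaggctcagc
Cdh18, chr15:23036213-23036462: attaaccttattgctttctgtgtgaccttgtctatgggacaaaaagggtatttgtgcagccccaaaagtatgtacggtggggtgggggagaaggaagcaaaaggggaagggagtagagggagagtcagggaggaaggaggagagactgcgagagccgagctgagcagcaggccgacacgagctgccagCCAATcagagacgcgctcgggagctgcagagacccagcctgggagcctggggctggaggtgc
Cdh20, chr1:104768270-104768519: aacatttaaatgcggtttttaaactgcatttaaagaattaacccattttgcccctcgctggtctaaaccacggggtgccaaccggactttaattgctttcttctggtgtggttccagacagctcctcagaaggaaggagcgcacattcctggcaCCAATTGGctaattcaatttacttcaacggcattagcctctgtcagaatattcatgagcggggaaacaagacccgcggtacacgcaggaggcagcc
Cdh9 and Cdh18, both on chromosome 15, share the 13 bases agccaatcagaga, which begin 76 bases before the start of Cdh9 and 64 before that of Cdh18. The run was found by a search for the longest stretch common to both promoters, so its presence in both was fixed by that search. On either strand it is in 29 of the 32544 RefSeq promoters of 300 bases, 0.0891%, a share that was not tested. Among the 22 of the 93 genes with a matched promoter, only Cdh9 and Cdh18 hold it. In Cdh20 the motif and its reverse complement overlap in 1 run, beginning 96 bases before the start. CCAAT on either strand was in 17 of the 25 promoters matched to 22 of the 93 genes, 68.0%, and in 37.4% of all RefSeq promoters. The promoters of these genes were also richer in G and C, with a median of 60.3% and 14 CG steps against 53.0% and 7. Pcdh9, Pcdh18 and Pcdh19, whose totals differed by less than 1.3-fold, hold the longer CCAATCAG as well, as do 4.07% of all promoters. A match of letters is a description and does not show a bound site.

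The other 3 type II cadherins past 1.3-fold were Cdh7, Cdh22 and Cdh5. Cdh7 had 569 and 1006 UMIs, 33.1 CPM against 50.6 CPM, which gave a log2 ratio of 0.61 (0.46 to 0.76). It was 0.37 at the same mix of clusters, just inside 1.3-fold, whose log2 is 0.38, and 0.43, past it, at the same mix of classes. Cdh22 had 414 and 638 UMIs, which gave a log2 ratio of 0.42 (0.23 to 0.60), and 0.30 at the same mix of clusters. VE-cadherin (Cdh5), the cadherin of endothelial junctions, had 128 and 216 UMIs, 7.44 CPM against 10.9 CPM, which gave a log2 ratio of 0.55 (0.22 to 0.87). Endothelial markers moved with it: 6 of the 10 listed markers were 1.3-fold higher, none was lower or at 0, and their sum stood at 167 CPM against 259 CPM. Endothelial cell-like nuclei numbered 48 and 64. Cdh5 at the same mix of clusters had a log2 ratio of 0.40, still past 1.3-fold, and at the same mix of classes one of 0.29, within it. The part of endothelial cell numbers in the Cdh5 total was not tested, and in summed counts more cells of a type and more RNA per cell cannot be told apart.

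The remaining 6 type II cadherins with at least 100 UMIs were within 1.3-fold. Cdh8 had 5965 and 6658 UMIs, which gave a log2 ratio of −0.05 (−0.10 to 0.00). Cdh11 had 3017 and 3492 UMIs, a ratio of 0.00 (−0.07 to 0.07), and Cdh12 had 2267 and 2564, a ratio of −0.03 (−0.11 to 0.05). Cdh6 stood at 0.04 (−0.07 to 0.16), Cdh24 at −0.03 (−0.18 to 0.12) and Cdh10 at 0.21 (0.13 to 0.28). On chromosome 15, where Cdh6, Cdh9, Cdh10, Cdh12 and Cdh18 all lie, genes past the fold thus lay beside genes near 0.

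Of the type I cadherins, both abundant members had small ratios. N-cadherin, Cdh2, had 11435 and 12752 UMIs, 665 CPM against 641 CPM, which gave a log2 ratio of −0.05 (−0.09 to −0.01), and 0.02 at the same mix of clusters. R-cadherin, Cdh4, had 7510 and 8085 UMIs, 436 CPM against 407 CPM, a ratio of −0.10 (−0.15 to −0.06). P-cadherin, Cdh3, was rare, with 30 UMIs in the wildtype-labelled library against 72 in the knockout-labelled one. Its log2 ratio of 1.05 (0.42 to 1.72) was 0.66 at the same mix of clusters. Most Cdh3 UMIs, 21 and 45, came from choroid plexus epithelium-like nuclei, at 48.6 CPM (30.1 to 74.3) and 80.5 CPM (58.7 to 108), so that the intervals overlap there. E-cadherin, Cdh1, went the other way with 54 and 30 UMIs, which gave a log2 ratio of −1.06 (−1.75 to −0.39), but fell short of 100 UMIs. Fibroblast-like nuclei held 66.7% of its UMIs, 39 and 17. M-cadherin, Cdh15, had 2 and 10 UMIs.

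Outside both types, T-cadherin (Cdh13) had 10784 and 10882 UMIs. Its level was 627 CPM (615 to 639) against 547 CPM (537 to 558), which gave a log2 ratio of −0.20 (−0.23 to −0.16), within 1.3-fold. Cdh23, which forms the tip links of hair cells together with Pcdh15, had 164 and 279 UMIs, which gave a log2 ratio of 0.56 (0.27 to 0.85). Cdh23 with clusters mixed alike was at 0.12, within 1.3-fold. Cdh16, Cdh17, Cdh19 and Cdh26 had at most 36 UMIs in all.

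Pcdh15 itself (chr10:72935174-74485569, plus strand, GRCm39) had 5072 and 8909 UMIs, 295 CPM (287 to 303) against 448 CPM (439 to 458). The log2 ratio was 0.60 (0.55 to 0.65), and 0.23 at the same mix of clusters. Gm15398, on the opposite strand within Pcdh15, had 3530 and 6192 UMIs with the same ratio of 0.60 (0.54 to 0.66). Pcdh15 was highest in cluster 0, where the libraries were close, at 868 CPM and 909 CPM. In nuclei where it was low, the knockout-labelled level was often higher. It stood at 137 CPM and 340 CPM in choroid plexus epithelium-like nuclei, at 34.2 CPM and 347 CPM in mural cell-like nuclei (3 and 46 UMIs) and at 116 CPM and 626 CPM in microglia or macrophage-like nuclei (11 and 45 UMIs). In fibroblast-like nuclei the order was opposite, 207 CPM and 118 CPM. Among the 14 clusters where Pcdh15 had 100 UMIs, its log2 ratio was above 0 in 12. The interval lay above 0 in 7 of the 14 and below 0 in 2, and the ratios ran from −0.80 to 1.32. Free RNA in the droplets can place UMIs of an abundant gene in nuclei that do not transcribe it, and its part in these levels was not tested.

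Of the delta protocadherins, Pcdh17 was past 1.3-fold, with 1884 and 3116 UMIs, 110 CPM (105 to 115) against 157 CPM (151 to 162). The log2 ratio was 0.52 (0.43 to 0.60), and 0.29, within 1.3-fold, at the same mix of clusters. Pcdh9, with 33876 and 38625 UMIs, was at 1969 CPM and 1943 CPM, a ratio of −0.02 (−0.04 to 0.00). Pcdh7 was at 0.17 (0.12 to 0.21) and 0.01 at the same mix of clusters, the X-linked Pcdh11x at 0.11 (0.02 to 0.20) and Pcdh1 at 0.27 (0.02 to 0.52). In the delta-2 family, Pcdh10 was at 0.15 (0.06 to 0.23), Pcdh8 at 0.12 (−0.04 to 0.28), Pcdh18 at 0.19 (−0.10 to 0.48) and Pcdh19, also X-linked, at 0.02 (−0.08 to 0.12). Pcdh12, an endothelial protocadherin, had 17 and 41 UMIs, 63.8% of them in endothelial cell-like nuclei, and Pcdh20 had 23 and 39.

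The clustered protocadherins lie on chromosome 18 in GRCm39, in the order alpha, beta, gamma, with 14, 22 and 22 features. Pcdha genes had a median of 28.5 UMIs in the wildtype-labelled library against 37.0 in the knockout-labelled one, Pcdhb genes 24.5 and 29.0, and Pcdhg genes 60.0 and 81.5. The range was 9 to 157 and 10 to 199 in Pcdha, 0 to 109 and 0 to 166 in Pcdhb, and 9 to 254 and 16 to 357 in Pcdhg. The highest count was that of Pcdhga12, with 254 and 357 UMIs, which gave a log2 ratio of 0.28 (0.05 to 0.52). It was followed by Pcdhgc4 with 195 and 199, one of the C-type genes that many neurons share, and by the Pcdha11 feature ENSMUSG00000102206 with 157 and 199. A second feature with the symbol Pcdha11, ENSMUSG00000007440, had 26 and 35 UMIs and is named Pcdha10 in GENCODE M39. The profile over the 58 genes was alike in both libraries, with a Pearson r of 0.96 between log UMIs, across genes that share each library's depth.

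Of the 27 clustered genes with at least 100 UMIs, 7 were past 1.3-fold on the higher side and 1 on the lower, beside 5.96% and 3.04% of all genes. Pcdhb16 had 42 and 80 UMIs, which gave a log2 ratio of 0.72 (0.16 to 1.3), and Pcdha5 had 57 and 107, a ratio of 0.70 (0.22 to 1.19). Pcdhb19 had 73 and 121 UMIs, a ratio of 0.52 (0.09 to 0.96), and Pcdhb17 had 109 and 166, a ratio of 0.40 (0.04 to 0.76). For Pcdhga3 at 0.44 (−0.17 to 1.05), Pcdhga10 at 0.40 (−0.11 to 0.93) and Pcdhb7 at 0.38 (−0.01 to 0.78), the intervals took in 0. Within 1.3-fold were Pcdhb7 at either equal mix, at 0.28 for classes and 0.23 for clusters, and Pcdhb17 and Pcdhga10 at the same mix of classes, at 0.34 and 0.36. Pcdhgb4 was the gene on the lower side, with 113 and 92 UMIs, a ratio of −0.50 (−0.92 to −0.10). With no filter on counts, 10 of 14 Pcdha, 18 of 22 Pcdhb and 13 of 22 Pcdhg genes had a higher CPM in the knockout-labelled library, beside 49.1% of all genes with at least 1 UMI. The interval lay above 0 for 1, 6 and 2 of them, beside 7.35% of all genes, and below 0 for Pcdhgb4 alone, beside 6.88%. At the same mix of clusters Pcdhga5 also passed on the higher side, at 0.44, and Pcdhb21 on the lower, at −0.52.

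These counts carry a limit of the assay. All 14 Pcdha and all 22 Pcdhg genes end in the same last exon as others of their array, while 2 of the 22 Pcdhb genes share their last exon with another. Reads from the 3′ end of a shared exon do not show which first exon was used, and how the authors assigned them is not given in the sources used here. The ratios of single Pcdha and Pcdhg genes are therefore uncertain in a way that those of most Pcdhb genes are not. Other features on the same strand, Gm37388, Gm38666 and Pcdha4b, overlap the spans of genes in all arrays, every Pcdhb gene included. How reads in these overlaps were assigned is not given either.

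**Figure D3:**
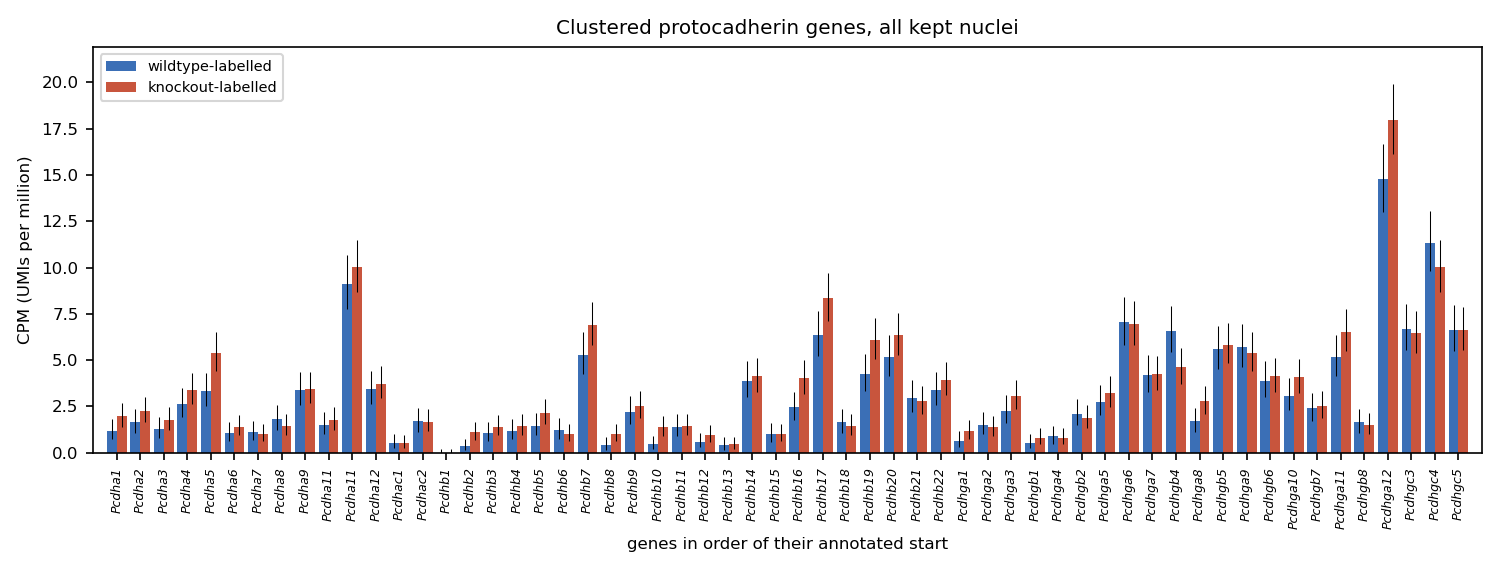
Level in CPM of each clustered protocadherin gene in both libraries over all kept nuclei, in order of annotated start, with 95% counting intervals as error bars. Pcdhga12 and Pcdhgc4 are the tallest bars, and the paired bars of most genes have overlapping intervals.

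Per nucleus the clustered genes were sparse. At least 1 clustered UMI was found in 31.6% of the nuclei of the wildtype-labelled library and 37.8% of those of the other, at median depths of 2134 and 2366 UMIs. With each nucleus thinned to 1000 UMIs, the shares were 15.8% (14.8% to 16.7%) and 17.2% (16.2% to 18.2%), with 846 and 1111 shallower nuclei left out. UMIs of 2 or more different clustered genes were found in 1.27% and 1.42% of thinned nuclei, with overlapping intervals. Over all 93 genes, the median thinned nucleus held 3 in either library, and 5 without thinning. With so few UMIs per nucleus, the set of clustered genes that a single nucleus uses was not detectable at this depth.

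The classes of nuclei differed in which members they held, and 20 of the 24 genes with at least 500 UMIs had the same highest class in both libraries among the 6 classes with at least 200 nuclei each. Genes under 100 UMIs over both libraries, such as Cdh1, Cdh19 and Pcdh12, were not ranked. For each class, the 3 genes among those ranked are given that stood highest over all other nuclei. In radial glia-like nuclei these were Cdh20 (69.0 CPM and 96.7 CPM), Cdh6 (160 CPM and 125 CPM) and Cdh2 (1013 CPM and 1045 CPM). In intermediate progenitor-like nuclei they were Pcdhgb4, Pcdhga3 and Pcdhga11, each on at most 13 UMIs in all. Cortical excitatory neuron-like nuclei were led by Cdh13, with 1282 CPM and 1235 CPM against 415 CPM and 410 CPM in the other nuclei, then Cdh12 (225 CPM and 216 CPM) and Pcdhga11 (8.33 CPM and 11.5 CPM). In cluster 7, whose markers included Fezf2, Tbr1 and Bcl11b of deep-layer neurons, Cdh13 reached 2589 CPM and 2355 CPM.

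Among the other neuron classes, other inhibitory neuron-like nuclei held Cdh22 at 125 CPM and 206 CPM, against 20.9 CPM and 28.6 CPM elsewhere, followed by Cdh12 (349 CPM and 344 CPM) and Cdh24 (101 CPM and 74.5 CPM). The neuron-like class was led by Cdh23 (25.0 CPM and 31.1 CPM), Cdh18 (305 CPM and 388 CPM) and Pcdh15 (775 CPM and 856 CPM). Other excitatory neuron-like nuclei were led by Pcdhb14 (9.42 CPM and 4.59 CPM, 17 and 9 UMIs), Cdh6 (134 CPM and 108 CPM) and Cdh7 (64.8 CPM and 73.4 CPM). Pcdh9 had its highest class level there as well, 3107 CPM and 2684 CPM, and reached 4497 CPM and 4387 CPM in cluster 13, led by Rnf220, Ntng1 and Prox1. Forebrain inhibitory neuron-like nuclei were led by genes on few UMIs: Pcdhgc3, Pcdha5 and Pcdhga10 led on at most 22 UMIs per library. Their summed cadherin level, 1445 CPM and 1483 CPM, was below that of cortical excitatory neuron-like nuclei, 3847 CPM and 3921 CPM. Cajal-Retzius cell-like nuclei were led by Cdh4 (1343 CPM and 1736 CPM), Pcdha9 (3 and 0 UMIs) and Cdh7 (92.9 CPM and 157 CPM).

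In the non-neuronal classes a few genes stood far above their level elsewhere. Endothelial cell-like nuclei held Cdh5 at 228 CPM (173 to 294) and 350 CPM (292 to 416), against 4.07 CPM and 4.56 CPM in all other nuclei. Pcdh1 followed there with 42.5 CPM (21.2 to 76) and 129 CPM (95.1 to 172), from 11 and 47 UMIs, and then Pcdhb22 on 7 UMIs and 1. Fibroblast-like nuclei were led by Cdh5 (90.2 CPM and 113 CPM), Pcdh18 (34.9 CPM and 61.8 CPM) and Cdh11 (582 CPM and 530 CPM), the cadherin of mesenchymal cells. In mural cell-like nuclei Pcdh18 stood at 137 CPM and 143 CPM, and Pcdhb21 and Pcdhb22 followed on 0 and 2 UMIs each. In choroid plexus epithelium-like nuclei Cdh3 was followed by Pcdhgb4 (9 and 3 UMIs) and Cdh20 (32.4 CPM and 93.0 CPM). Microglia or macrophage-like nuclei, 25 and 15 in number, were led by Cdh23 with 8 and 5 UMIs, then Pcdhga5 and Pcdhgb4 with 1 UMI in each library. These small classes give wide intervals.

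**Figure D4:**
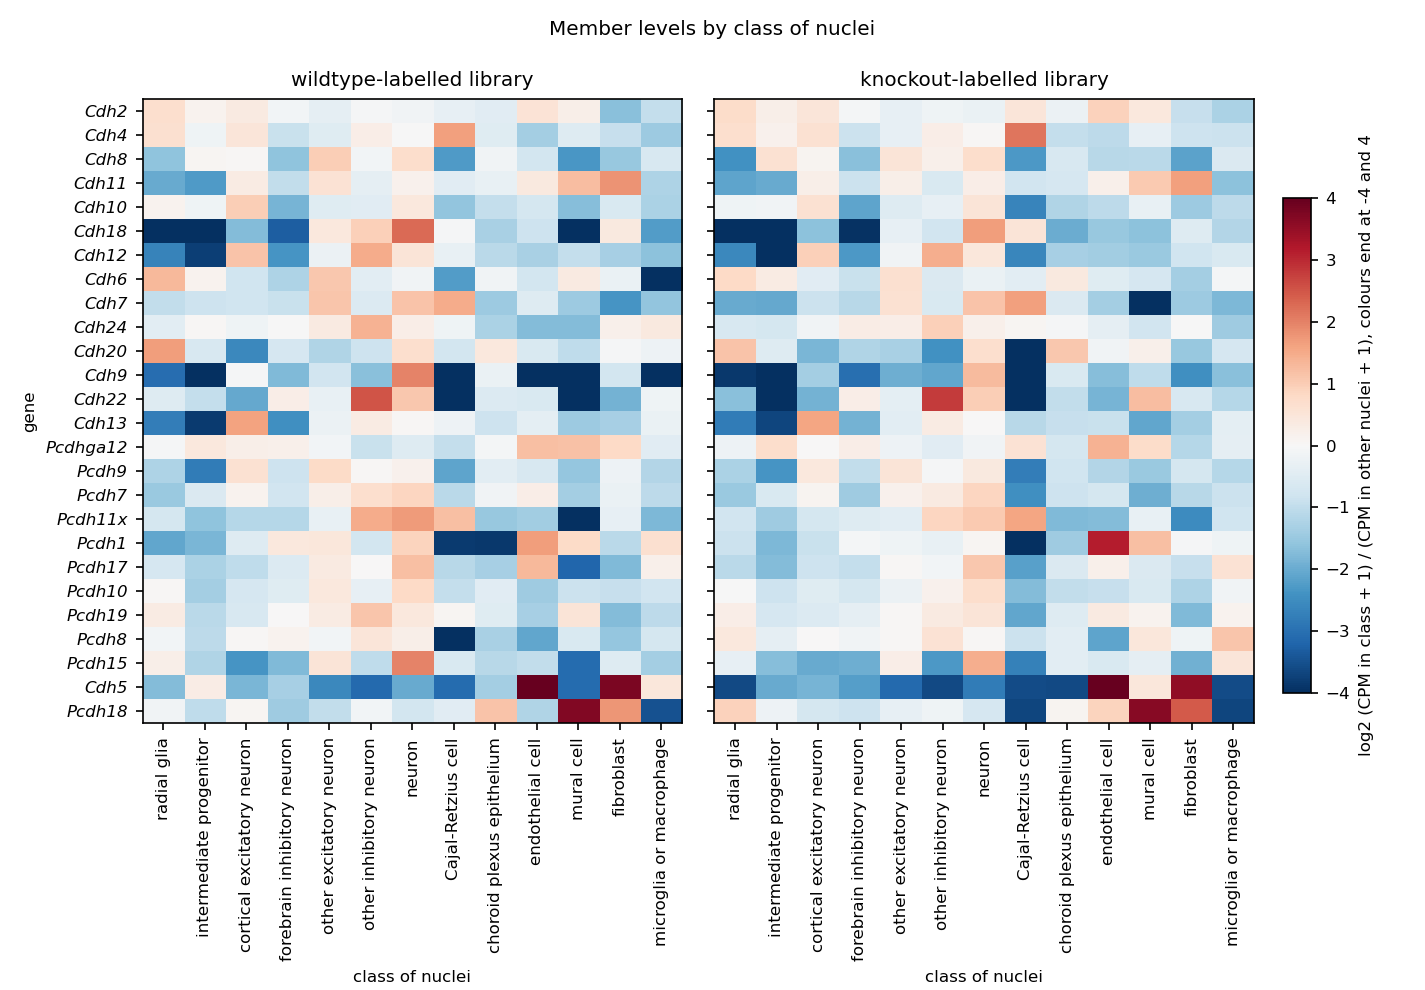
Colour gives the log2 of a gene's CPM in a class of nuclei plus 1 over its CPM in all other nuclei plus 1, in the wildtype-labelled (left) and the knockout-labelled (right) library, for genes with at least 500 UMIs and for Cdh5 and Pcdh18. Cdh5 is red in endothelial cell-like and fibroblast-like nuclei, Pcdh18 in mural cell-like nuclei and Cdh13 in cortical excitatory neuron-like nuclei, in both panels.

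The clustered protocadherins varied less between classes than the other sets. Their sum ranged from 104 CPM in radial glia-like to 211 CPM in other inhibitory neuron-like nuclei among the classes with at least 100 UMIs in the wildtype-labelled library. In the knockout-labelled library the same classes stood at 133 CPM and 242 CPM. The non-clustered sum ran from 967 CPM in intermediate progenitor-like to 4641 CPM in other excitatory neuron-like nuclei in the wildtype-labelled library, and stood at 1173 CPM and 4371 CPM in the same classes of the knockout-labelled one.

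Ratios within classes were taken in the 6 classes with at least 200 nuclei in each library, for genes with at least 100 UMIs there. In cortical excitatory neuron-like nuclei 5 of 21 genes were past 1.3-fold higher and 0 lower, beside 3.89% and 3.84% of all genes. Cdh18 stood at 37.1 CPM and 68.1 CPM, which gave a log2 ratio of 0.88 (0.57 to 1.18), Pcdh15 at 70.7 CPM and 127 CPM, a ratio of 0.84 (0.63 to 1.06), and Pcdh17 at 61.6 CPM and 95.7 CPM, a ratio of 0.63 (0.39 to 0.88). Cdh7 at 0.50 and Pcdh11x at 0.46 were the other 2. At a coarser clustering the Pcdh15 ratio in this class turned to −0.23. Abundant genes of the class were close, among them Cdh13 at −0.05, Cdh2 at 0.08 and Cdh10 at 0.02.

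In the neuron-like class 4 of 25 genes were higher and 2 lower, beside 5.32% and 4.1% of all genes. Cdh20 had 104 and 318 UMIs, which gave a log2 ratio of 0.83 (0.50 to 1.16), Cdh9 had 156 and 419, a ratio of 0.64 (0.37 to 0.92), and Pcdhga12 had 31 and 84, a ratio of 0.65 (0.04 to 1.3). Cdh7 was the fourth, at 0.50. Pcdh11x at −0.43 (−0.56 to −0.29) and Pcdh1 at −0.41 (−0.90 to 0.08) were lower. The Cdh9 ratio in this class turned to −0.11 at a finer clustering and to −0.34 without the nuclei of highest doublet score. The class gathers clusters 0, 17 and 21, whose shares differ between the libraries: cluster 0 held 643 and 1107 nuclei and cluster 17 held 145 and 98.

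Forebrain inhibitory neuron-like nuclei had 3 of 18 genes higher and 1 lower, beside 5.56% and 3.98% of all genes. Pcdh11x had 121 and 190 UMIs there, which gave a log2 ratio of 0.69 (0.36 to 1.03). Cdh22 at 0.42 (−0.07 to 0.91) and Pcdh15 at 0.39 (0.13 to 0.66) were also past 1.3-fold, though the Cdh22 interval took in 0. Pcdh7 was lower at −0.48 (−0.65 to −0.31). The Pcdh7 value joins clusters that ran in opposite directions. In cluster 2 Pcdh7 had 432 and 191 UMIs, a ratio of −0.92 (−1.18 to −0.67), and in cluster 9 it had 211 and 175, a ratio of −0.28 (−0.58 to 0.02). In cluster 8 it had 55 and 121 UMIs, a ratio of 0.91 (0.44 to 1.40). That cluster, with 323 and 330 nuclei, carried all 8 listed markers of dividing cells, as did radial glia-like cluster 4. Cluster 8 is led by cell-division genes such as E2f2, Clspn and Kif11. Dlx1, Dlx2, Dlx5 and Dlx6 were among its raised markers of the class, while Gad1 and Gad2 were not. Without cluster 8, a choice made after seeing the data, 3 of 16 genes were higher and 1 lower, beside 5.85% and 4.5%. The higher genes were then Pcdh11x at 0.86, Pcdh15 at 0.40 and Cdh24 at 0.40, and Pcdh7 was at −0.65 (−0.84 to −0.47).

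In intermediate progenitor-like nuclei 2 of 7 genes were higher, Cdh8 at 0.47 and Pcdh9 at 0.40, and 0 lower, beside 6.74% and 6.93%. Other excitatory neuron-like nuclei had 1 of 19 higher, Pcdh15 at 0.38, and 2 lower, Pcdh10 at −0.43 and Cdh8 at −0.42, beside 5.98% and 5.44%. Radial glia-like nuclei were those of cluster 4, which carried all 8 listed markers of dividing cells. Dividing and other nuclei were not told apart there. In this class 1 of 14 was higher, Cdh20 at 0.49 (0.02 to 0.95), and 1 lower, beside 5.72% and 6.26%. That gene was Cdh8, with 140 and 53 UMIs, 118 CPM (99.1 to 139) against 64.1 CPM (48.0 to 83.8), a ratio of −0.88 (−1.36 to −0.41). With 1 or 2 genes in each direction, these last counts are too small to set against the background.

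**Figure D5:**
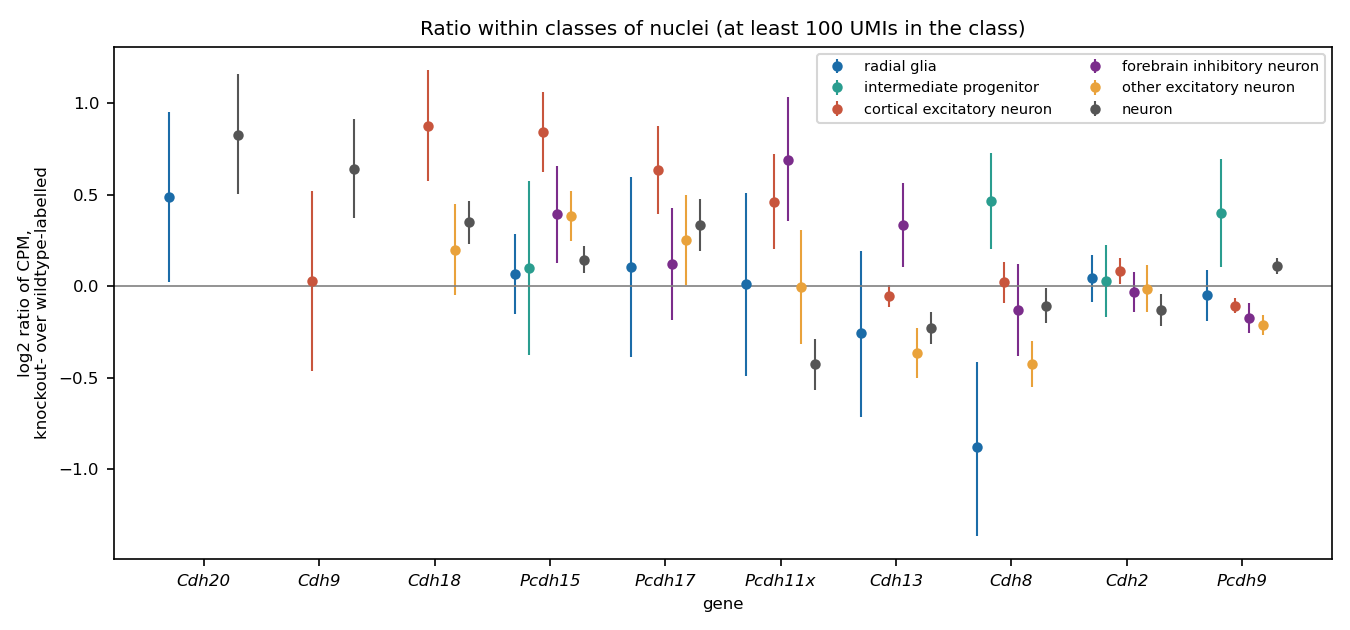
Log2 ratio of CPM, knockout-labelled over wildtype-labelled library, within each of the 6 larger classes for 10 genes, with 95% counting intervals as bars; a class is shown for a gene with at least 100 UMIs there. Cdh2 lies near 0 in all 6 classes, and Cdh8 ranges from 0.47 in intermediate progenitor-like to −0.88 in radial glia-like nuclei. The points of Pcdh15 lie above 0 in each class, but its intervals take in 0 in radial glia-like and intermediate progenitor-like nuclei.

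Profiles over the 18 clusters with at least 100 nuclei per library were compared for the 24 genes with at least 500 UMIs. A gene's profile in one library and its profile in the other had a Pearson r from 0.35 (Pcdhga12) to 0.98 (Cdh13), with a median of 0.90. The points share libraries and cluster depths, so these are descriptions. Of 276 pairs of genes, the most alike in both libraries were Cdh4 with Cdh10 (r 0.89 and 0.84), Cdh13 with Pcdh9 (0.85 and 0.83) and Cdh9 with Cdh18 (0.84 and 0.78).

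The genes around the cadherins were also counted. Of 47 listed partners, 44 had at least 100 UMIs. In this list 1 was past 1.3-fold higher and 0 lower, beside 5.96% and 3.04% of all genes, and the median log2 ratio was −0.03, beside −0.01 over all genes. The gene was Dchs2, a giant protocadherin of planar cell polarity, with 196 and 360 UMIs, a ratio of 0.67 (0.41 to 0.93), and 0.23, within 1.3-fold, at the same mix of clusters. None of the 10 catenins and junction proteins measured was past 1.3-fold. Alpha-N-catenin, Ctnna2, had 55040 and 60578 UMIs, a ratio of −0.07 (−0.09 to −0.05), and beta-catenin, Ctnnb1, had 3619 and 3826, a ratio of −0.13. The 10 genes that control the clustered arrays lay between −0.17 and 0.04, among them Ctcf at −0.04 and Smchd1 at −0.13. The planar polarity cadherin Celsr1 was at −0.30 and the calsyntenin Clstn1 at 0.31, both within 1.3-fold.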

How the data were processed

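Nuclei of whole fetal brain were profiled with 10x Genomics 3′ chemistry, version 3.1, in 1 library per genotype. The deposited values are UMI counts, not normalized, for each feature in each barcode. Per the file headers the authors made them with version 6.1.1 of Cell Ranger. The submitters' processing notes name Cell Ranger 3.0.1, STAR and GRCm39. Whether intronic reads were counted, and by strand, is not given in the sources used here. Columns left unused numbered 0.

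Nuclei with at least 500 genes and at most 5% mitochondrial UMIs were kept. Just under that minimum, at 400 to 499 genes, the 93 genes held 0.155% and 0.137% of UMIs in the wildtype-labelled and knockout-labelled library, and just above it, at 500 to 599 genes, 0.176% and 0.168%. The automatic threshold of Scrublet marked 0 nuclei in either library and was taken as not working. Doublets were therefore kept, with an alternative that leaves out the 8% highest scores.

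Clustering used scanpy 1.11.5 with 1977 variable genes, 30 principal components, 15 neighbours and Leiden resolution 1, without the 93 genes and without correction between libraries. A class name needed at least 3 markers 2-fold above other nuclei and 1.5-fold within each library, and no other class with more markers among the 10 leading genes. Clusters left over were called neuron-like where 3 or more markers shared by all neurons stood 2-fold over the non-neuronal clusters. The names are rebuilt, no annotation by the authors was used, and the naming thresholds were set after the clusters had been seen.

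CPM have exact Poisson intervals and log2 ratios exact conditional binomial intervals. UMIs were summed, since nuclei are not replicates, and genes were counted past 1.3-fold with at least 100 UMIs. The calculation was tested on simulated counts drawn from the Poisson model that the intervals assume. That test checks the arithmetic only, since variation between libraries and differences in cell mix were not simulated. The equal mix averages the CPM of each cluster, or class, with its mean share over both libraries. Named are genes past 1.3-fold over all nuclei, and abundant members as values. Genes past 1.5-fold in a class of at least 200 nuclei per library with an interval that leaves out 0 are named too. The 3 leading genes of each class were taken from those with at least 100 UMIs over both libraries. The members and all lists were chosen with earlier results of these data known. Gene positions are from GENCODE M39 (GRCm39), matched by identifier for 98.8% of features and all 93 genes. Promoters are from RefSeq (GRCm38.p6).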

Additional observations from a re-analysis of the deposited data

Results flagged for a closer look

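For 8 genes the ratio between the libraries had its interval above 0 in one of the larger classes and below 0 in another. They were 8 of the 23 with at least 100 UMIs in 2 or more of these classes, beside 3.45% of all such genes. Counting intervals narrow as UMIs rise, so abundant genes meet this rule on smaller ratios. Pcdh9 had 72501 UMIs in all and Cdh2 24187. The 2 shares were not matched on UMIs, and the part of depth in their difference was not tested. The widest gap was that of Cdh8, 1.34 on the log2 scale between intermediate progenitor-like and radial glia-like nuclei. It was 1.12 for Pcdh11x between forebrain inhibitory neuron-like nuclei (0.69) and the neuron-like class (−0.43). Cdh13 had a gap of 0.70 between forebrain inhibitory neuron-like (0.33) and other excitatory neuron-like nuclei (−0.36). Pcdh10 also had a gap of 0.70, between cortical excitatory neuron-like (0.27) and other excitatory neuron-like nuclei (−0.43). Cdh6 had a gap of 0.68 between cortical excitatory neuron-like (0.32) and radial glia-like nuclei (−0.36), and Pcdh7 one of 0.65 between cortical excitatory neuron-like (0.17) and forebrain inhibitory neuron-like nuclei (−0.48). Within the latter class the Pcdh7 ratio ran from −0.92 in cluster 2 to 0.91 in the dividing cluster 8, a spread wider than that gap, and it was −0.28 in cluster 9. The gap of Pcdh9 was 0.61 between intermediate progenitor-like (0.40) and other excitatory neuron-like nuclei (−0.21), and that of Cdh2 was 0.21 between cortical excitatory neuron-like nuclei (0.08) and the neuron-like class (−0.13). With 1 library per genotype, these differences between classes and clusters were not tested.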

How the results depend on the processing

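No paired analysis was possible because each genotype has 1 library. The count of 17 genes higher and 1 lower became 10 higher at the same mix of classes, 11 and 2 at the same mix of clusters, 32 and 2 of 86 with at least 20 UMIs, 33 and 3 of 92 with at least 1 UMI in each library, and 8 and 0 of 54 at 1.5-fold. Of all genes, 11% and 7.42%, 17.1% and 13.5%, and 2.11% and 0.605% were past these last 3 rules. The sums by family moved with the mix. At the same mix of classes the log2 ratio was −0.0016 for type I, 0.12 for type II and −0.10 for other cadherins, and −0.014, 0.11 and 0.35 for the delta-1, delta-2 and other non-clustered protocadherins. At the same mix of clusters these were −0.0092, 0.068, −0.14, −0.069, 0.088 and 0.24. With the highest doublet scores left out, type II was 0.25, other cadherins −0.11 and delta-1 0.059. The same mix of clusters and the named classes alone were chosen after seeing the data. In the named classes alone, type II was 0.16 and delta-1 −0.0018. With at least 200 genes per nucleus, delta-1 was 0.0038. The 1 partner gene past 1.3-fold became 0 at either equal mix.

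Counts within classes also shifted. With at least 20 UMIs they came to 24 of 59 in the neuron-like class (19 higher, 5 lower, beside 22.2% of all genes in either direction), 12 of 34 in forebrain inhibitory (8 and 4, beside 23.1%), 19 of 51 in cortical excitatory (13 and 6, beside 20.2%) and 9 of 33 in other excitatory neuron-like nuclei (6 and 3, beside 25.8%). Radial glia-like nuclei had 6 of 22 (3 and 3, beside 29.1%) and intermediate progenitor-like nuclei 8 of 18 (7 and 1, beside 33.2%). Leiden resolution 0.5 gave 2 in forebrain inhibitory neuron-like nuclei. Without the highest doublet scores the count was 2 in the neuron-like class and 1 in radial glia-like nuclei. At resolution 0.5, Pcdh15 in cortical excitatory neuron-like nuclei reversed to −0.23. Cdh9 in the neuron-like class reversed to −0.11 at resolution 2 and to −0.34 without the highest doublet scores. Class sums also shifted. At resolution 0.5 the cadherins of cortical excitatory neuron-like nuclei were at 4527 CPM and 4621 CPM, and the non-clustered protocadherins of other excitatory neuron-like nuclei at 4053 CPM and 3519 CPM. In the knockout-labelled library the latter stood at 4170 CPM at resolution 2 and 4151 CPM without the highest doublet scores. The clustered protocadherins of the neuron-like class were at 211 CPM in the wildtype-labelled library at resolution 2, and at 247 CPM in the knockout-labelled library without those scores. No intermediate progenitor-like or neuron-like class was found at resolution 0.5, so that setting gave no value for them. The cause of these shifts was not tested. The median of gene ratios was −0.01, so scaling by it raised each log2 ratio by 0.01.

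Of the 18 genes past 1.3-fold over all nuclei, none changed sign under the 7 alternatives run for each. These alternatives reuse the same UMIs, and other Leiden resolutions were not among them. A kept sign is a weaker result than a kept fold. Of the 17 higher genes, 10 stayed past 1.3-fold at the same mix of clusters and 9 at the same mix of classes. Counting depth limits the clustered genes most, since 27 of 58 reached 100 UMIs.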
